A study of Mus musculus with 10 samples.

Results

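The acyl-CoA thioesterase family was examined in the transcriptome of interscapular brown adipose tissue (iBAT) from mice lacking cardiolipin synthase in adipocytes. Its 9 members here, Acot1, Acot2, Acot3, Acot4, Acot7, Acot8, Acot9, Acot11 and Acot13, were taken by gene symbol from the deposited table of 15075 genes by a rule that uses no measured value, although the family was picked with earlier results of these data known. All 9 were found in the table. Another 4 genes of the same name series, Acot5, Acot6, Acot10 and Acot12, are also listed and are described separately as relatives.

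Acyl-CoA thioesterases cut an acyl-CoA, the activated form of a fatty acid, into free fatty acid and coenzyme A. They work against the acyl-CoA synthetases, and so help to set how much activated fatty acid and how much free coenzyme A a compartment holds. The type I enzymes (Acot1 to Acot6) share an alpha/beta hydrolase fold and arose by gene duplication, whereas the type II enzymes (Acot7 to Acot13) carry hotdog folds and are related to each other mainly in structure. Members work in the cytosol, in mitochondria and in peroxisomes, and Acot11 is also known as brown fat inducible thioesterase because it was found as a transcript that rises in brown fat in the cold.

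Bulk polyadenylated RNA was sequenced from the iBAT of 5 Control and 5 AdCKO mice, with 1 library per mouse. AdCKO mice were homozygous for a Crls1 allele with loxP sites around exon 4 and carried Cre driven by the adiponectin promoter, which is active in white as well as brown adipocytes. Control mice were homozygous for the same floxed allele and had no Cre, although the sample labels call them wild-type. All were C57BL/6 mice aged 20 weeks and kept at room temperature, and the question addressed by the comparison is what loss of cardiolipin synthesis does to the brown fat transcriptome. Values are normalized reads per kb of counted exon, which is a level per length, so levels of different genes can be set beside each other. Sequencing depth is unknown for these normalized values, so the errors given are the spread between mice.

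Crls1 itself, the gene for cardiolipin synthase, averaged 1060.2 ± 191 normalized reads per kb in Control against 217 ± 26.4 in AdCKO (SD over 5 mice a group), and its groups did not overlap. AdCKO replicates 1, 2 and 4 also contained skeletal muscle transcripts. The summed level of 9 muscle markers was 7058, 26956 and 10495 normalized reads per kb in these libraries, against 164 and 148 in AdCKO replicates 3 and 5 and 115 to 148 in Control. Results for the members are therefore given with all libraries and again without these 3. Of 12 brown adipocyte markers 8 were lower and 1 was higher in AdCKO, and none was at 0, so markers of the labelled tissue were present in both groups. The summed level of 12 macrophage markers was 542 to 1543 in Control but 9065 to 13563 in AdCKO, with 11 of 12 higher, and all 5 fibroblast markers were higher. Fewer adipocytes and less RNA of a gene per adipocyte cannot be told apart in such bulk samples, and the part of the macrophage and fibroblast signal in the results below was not tested.

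AdCKO iBAT held 11.2% of the Control mean of Acot11 and 55.1% of that of Acot13, which were the most abundant members in Control, and 2.46-fold the Control mean of Acot2. Of the 9 members, all of which passed the filter on low values, 4 were lower in AdCKO (Acot11, Acot13, Acot3 and Acot4), 1 was higher (Acot2) and 4 were not called (Acot1, Acot7, Acot8 and Acot9). Calls rest on limma, a linear model fitted to log2(value + 1) across 11244 tested genes, with a Benjamini-Hochberg adjusted p under 0.01. By the same rule 28.0% of all tested genes were lower and 25.6% were higher, or 53.6% in either direction, so 5 of 9 called members is close to the background. The median log2 fold change of AdCKO over Control was -0.14 over the members and -0.01 over all tested genes. In 4 of the 9 members the 2 groups did not overlap, as in 50.9% of all tested genes. Without the 3 libraries with muscle transcripts, 2 members were lower (Acot11 and Acot13) and 1 was higher (Acot2). Calls fell over all genes too, to 2191 lower and 2083 higher of 11097 tested, in place of 3152 and 2879 of 11244. Every library of AdCKO has a smaller summed value than every Control library, and with all libraries scaled to the same total the median over all genes became 0.47 on the log2 scale. The split of calls then went from 52.3% lower and 47.7% higher to 13.5% and 86.5%, and the members stood at 2 lower (Acot11 and Acot13) and 4 higher (Acot2, Acot7, Acot8 and Acot9). Relative to that median, the values of Acot11 (-3.21), Acot13 (-0.86) and Acot2 (1.26) matched those relative to the median under the authors' scaling to 2 decimals. Scaling a library shifts the log2 values of all its genes nearly alike, so this match was fixed in advance and tests nothing about these members.

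**Figure D1:**
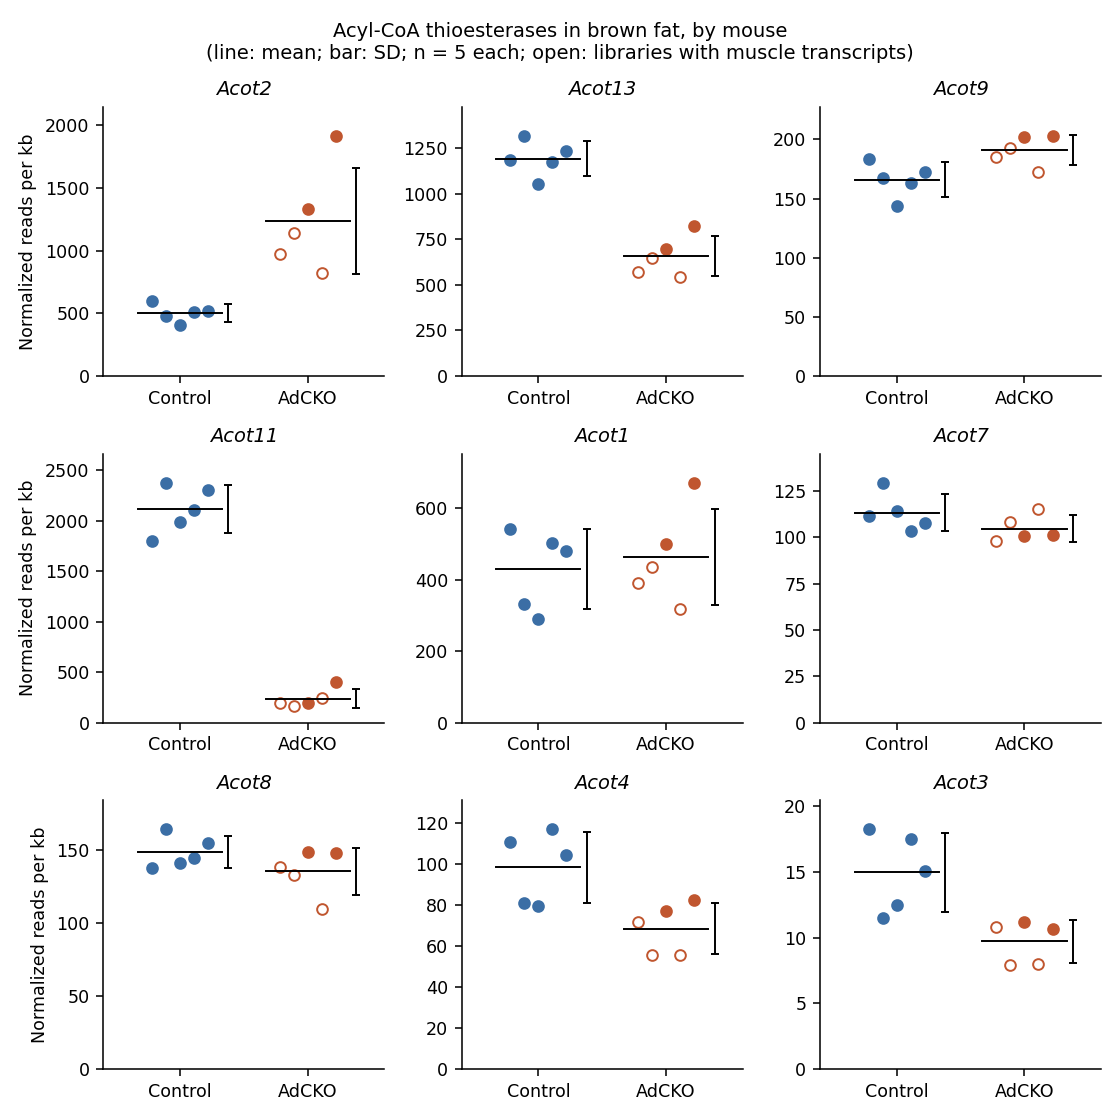
Level of each of the 9 members in each mouse, in normalized reads per kb on a linear axis from 0, with Control in blue, AdCKO in orange, the mean as a line and the SD as a bar (n = 5 each). Open circles are the 3 AdCKO libraries with muscle transcripts. The groups lie apart for Acot2, Acot13, Acot11 and Acot3 and overlap for the other 5 members.

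The largest difference in the family was that of Acot11, a thioesterase for long-chain acyl-CoAs with a lipid-binding START domain. Acot11 spans 106417166 to 106472436 of chromosome 4 (minus strand, mouse build mm9, as for all positions here). The 5 Control mice had 1801, 2377, 1989, 2110.4 and 2306 normalized reads per kb, while the 5 AdCKO mice had 194.7, 160.6, 192.9, 240.5 and 397.6. Every AdCKO value was far below the lowest Control value, and AdCKO replicate 5 held the most. The mean of 2117 ± 234 in Control compared with 237 ± 94.1 in AdCKO, which left 11.2% of the Control mean. The log2 fold change was -3.22 (adjusted p = 7.38e-08 by limma, SE 0.20), and the exact two-sided permutation test gave p = 0.0079, the smallest that 5 against 5 mice allow. Among the genes that were lower in AdCKO, Acot11 had the 6th largest change and the 86th smallest p. By level it stood at place 240 of the 15075 genes in Control and at place 1960 in AdCKO. In AdCKO replicates 3 and 5 alone, which lack muscle transcripts, the log2 fold change was -2.92 (adjusted p = 4.01e-06, limma). The exons of Acot11 overlap those of Fam151a on the opposite strand, with which 19.0% of the 50-base windows of its transcript are shared. That transcript has 5689 bases against 4405 counted bases, so the shared part of the counted bases is unknown. Whether reads were counted by strand is not given in the sources used here.

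Among the members placed mainly in mitochondria, Acot2 rose and Acot13 fell. Acot2, a thioesterase of the mitochondrial matrix that acts on long-chain acyl-CoAs, lies on the plus strand of chromosome 12 from 85328811 to 85334825. Its level was 598.4, 477.2, 409.7, 509.1 and 517.0 normalized reads per kb in Control, against 970.8, 1139.8, 1333.7, 822.0 and 1914.5 in AdCKO. All AdCKO values lay above all Control values, and the 2 highest came from AdCKO replicates 5 and 3. The mean level went from 502 ± 68.4 to 1236 ± 425 (SD, n = 5 each), which is a log2 change of 1.25 (adjusted p = 0.000109 by limma, SE 0.19). The spread between mice was wider in AdCKO, with a coefficient of variation of 34.3% against 13.6% in Control. Without the 3 libraries with muscle transcripts the log2 fold change was 1.68 (adjusted p = 1.62e-05, limma).

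Acot13, a small hotdog thioesterase also known as Them2, spans 24909824 to 24923358 of chromosome 13 (minus strand). It stood at 1183, 1316, 1052, 1173 and 1235 normalized reads per kb in Control, against 570.6, 647.5, 698.5, 545.0 and 823.8 in AdCKO. The groups did not overlap, and within AdCKO the order of the libraries for the 2 highest was the same as for Acot2. The AdCKO mean of 657 ± 111 was 55.1% of the Control mean of 1192 ± 96.5, with a log2 fold change of -0.87 (adjusted p = 2.13e-05 by limma, SE 0.11). It was -0.65 without the 3 libraries with muscle transcripts (limma adjusted p = 0.000845).

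Acot9, a mitochondrial thioesterase with a broad range of acyl-CoA substrates, lies on the plus strand of the X chromosome from 151697043 to 151732050. Its level ran from 143 to 183 normalized reads per kb in Control (median 167) and from 172 to 203 in AdCKO (median 193), so the groups overlapped. The log2 fold change of 0.20 (SE 0.08) had a limma adjusted p of 0.0328 and was not called. The exact permutation test of this gene alone gave p = 0.0238, with no adjustment for the other genes. Without the 3 libraries with muscle transcripts the change was 0.29 and again not called (limma adjusted p = 0.0429). Acot9 shares 20.2% of its 50-base windows with Acot10, a relative with a single exon whose coding sequence is 97.2% identical, so reads could have been split between them.

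Neither of the members placed mainly in the cytosol was called. Acot1, which hydrolyses long-chain acyl-CoAs, lies 21.6 kb from Acot2 by start site, on the plus strand of chromosome 12 from 85350452 to 85358619. Its level was 542.7, 331.7, 288.9, 502.8 and 479.8 normalized reads per kb in Control, against 391.9, 434.7, 499.1, 319.3 and 671.7 in AdCKO. The groups overlapped over most of their range, with the highest value in AdCKO replicate 5 and the lowest in Control replicate 3. The means of 429 ± 112 and 463 ± 134 gave a log2 fold change of 0.11 (adjusted p = 0.675 by limma, SE 0.21), with a 95% interval from -0.36 to 0.57. That interval includes a decrease as well as a rise, and the sign of the estimate changed when Control replicate 3 (-0.02) or AdCKO replicate 5 (-0.04) was left out. It was 0.47 without the 3 libraries with muscle transcripts (limma adjusted p = 0.114).

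Acot7, a cytosolic thioesterase known for its abundance in brain, lies on the plus strand of chromosome 4 from 151552209 to 151645964. Its level ran from 103 to 129 normalized reads per kb in Control and from 97.7 to 115 in AdCKO, and it shared no 50-base window with another annotated transcript. The log2 fold change was -0.11 (95% interval -0.28 to 0.05, limma adjusted p = 0.204). Scaled to the same total in every library, its value became 0.36, while the median of all genes moved to 0.47. It was -0.16 without the 3 libraries with muscle transcripts (limma adjusted p = 0.232).

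Acot1 and Acot2 are near copies of each other, and their values have to be read with that in view. Over 1235 aligned coding bases the annotated transcripts are 95.5% identical, with 55 differing bases, and the longest identical stretch holds 273 bases. Of the 50-base windows of the Acot1 transcript 34.9% also occur in Acot2, and 24.5% of the Acot2 windows occur in Acot1. How the authors treated reads that match both is not given in the sources used here, so the split of reads between this pair is uncertain. The coding sequence of Acot2 starts 123 bases ahead of that of Acot1, and this part, which encodes the extension known to carry the mitochondrial targeting sequence of the Acot2 protein, is shown first because it sets the pair apart. The 100-base coding window in which the pair differs most follows, with its 14 differing bases in capitals. Positions are counted from the first base of each coding sequence, all letters are 5′ to 3′, and the sequences come from the GENCODE vM1 transcripts on mm9.
Acot2 coding bases 1 to 123: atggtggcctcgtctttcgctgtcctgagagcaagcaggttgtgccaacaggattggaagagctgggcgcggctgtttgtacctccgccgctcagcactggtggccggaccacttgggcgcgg
Acot2 coding bases 910 to 1009: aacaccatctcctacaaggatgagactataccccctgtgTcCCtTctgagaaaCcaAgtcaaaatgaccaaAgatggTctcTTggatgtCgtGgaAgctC
Acot1 coding bases 787 to 886: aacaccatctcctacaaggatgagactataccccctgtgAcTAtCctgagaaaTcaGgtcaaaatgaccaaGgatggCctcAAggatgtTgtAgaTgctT

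The sequence ahead of the start sites was compared by the longest shared stretch only. It was not aligned, so it cannot be set beside the identity of the coding sequence. In the 250 bases upstream of each annotated start, the longest stretch that Acot1 and Acot2 have in common on either strand is 9 bases, and the pairs among the 6 Acot genes of chromosome 12 share at most as much. The windows of these near copies, 1 of which rose in AdCKO while the other was not called, and of Acot11, the member with the largest decrease, are given for mm9 on the strand of the gene with the motif CCAAT (or its reverse complement) in capitals.
Acot2, chr12:85328561-85328810, plus strand: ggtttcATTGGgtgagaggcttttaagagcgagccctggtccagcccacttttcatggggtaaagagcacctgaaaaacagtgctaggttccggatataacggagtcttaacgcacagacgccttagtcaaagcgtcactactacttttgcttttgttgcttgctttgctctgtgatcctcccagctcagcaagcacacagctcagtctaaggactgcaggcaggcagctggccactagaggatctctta
Acot1, chr12:85350202-85350451, plus strand: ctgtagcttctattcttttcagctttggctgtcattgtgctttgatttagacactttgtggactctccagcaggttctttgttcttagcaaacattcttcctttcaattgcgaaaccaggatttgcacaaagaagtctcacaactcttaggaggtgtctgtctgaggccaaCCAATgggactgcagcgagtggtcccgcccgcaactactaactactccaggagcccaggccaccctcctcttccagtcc
Acot11, chr4:106472437-106472686, minus strand: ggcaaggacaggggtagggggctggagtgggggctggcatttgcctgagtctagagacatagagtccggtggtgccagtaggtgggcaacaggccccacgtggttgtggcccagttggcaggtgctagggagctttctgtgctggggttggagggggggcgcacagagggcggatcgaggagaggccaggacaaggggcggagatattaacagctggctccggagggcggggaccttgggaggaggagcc

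These windows were searched on both strands for 6 motifs of transcription factors. CCAAT was present in 6 of the 9 member windows, against 35.3% of the 15075 windows of all listed genes. It lies 79 bases ahead of the start of Acot1 and 244 bases ahead of that of Acot2, and is not among the letters of the Acot7, Acot11 and Acot13 windows. The nuclear receptor half-site AGGTCA was found in 1 member window, that of Acot4, and in 10.9% of all windows. The DR1 repeat, which is the half-site repeated after a single free base, and the ERR element TCAAGGTCA, which also contains the half-site, were in none of the 9, and in 0.0464% and 0.265% of all windows. The C/EBP-ATF element TGATGNAA and the CRE TGACGTCA were also in none of the 9, with background shares of 2.03% and 2.5%. These letters describe the windows and say nothing about factors bound elsewhere.

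The members placed in peroxisomes, Acot3, Acot4 and Acot8, were lower or not called. Acot4, which in mouse hydrolyses succinyl-CoA, lies on the plus strand of chromosome 12 from 85379329 to 85385673. Its level was 110.5, 80.8, 79.3, 116.9 and 104.2 normalized reads per kb in Control, against 71.9, 55.5, 76.8, 55.6 and 82.7 in AdCKO. The highest AdCKO value lay above the 2 lowest Control values, so the groups overlapped. The log2 fold change was -0.52 (adjusted p = 0.00724 by limma, SE 0.14), and the exact permutation test gave p = 0.0238. This call was lost, at adjusted p from 0.0112 to 0.0205, when Control replicate 1, 4 or 5 or AdCKO replicate 1, 2 or 4 was left out. Without the 3 libraries with muscle transcripts the log2 fold change was -0.28 (adjusted p = 0.164, limma).

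Acot3, a peroxisomal thioesterase for long-chain acyl-CoAs, was the least abundant member and lies beside Acot4, from 85393101 to 85400514. It stood at 18.2, 11.5, 12.5, 17.5 and 15.1 normalized reads per kb in Control, against 10.8, 7.89, 11.2, 8.03 and 10.7 in AdCKO. The groups did not overlap, but the lowest Control value and the highest AdCKO value differed by less than the SD of either group. The log2 fold change was -0.57 (adjusted p = 0.0055 by limma, SE 0.15). The call was lost, at adjusted p from 0.0134 to 0.0162, without Control replicate 1, 4 or 5 or AdCKO replicate 2 or 4, and the log2 fold change was -0.40 without the 3 libraries with muscle transcripts (limma adjusted p = 0.0873). The exons of Acot3 and Acot4 overlap a lincRNA on the opposite strand, 4732463B04Rik, whose reads cannot be told apart from theirs without strand. Scaled to the same total in every library, neither was called, at -0.12 for Acot3 and -0.04 for Acot4, which relative to the median of all genes is -0.59 and -0.51.

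Acot8, a peroxisomal enzyme with a broad range of acyl-CoA substrates, spans 164618268 to 164630381 of chromosome 2 (minus strand). Its level ran from 138 to 164 normalized reads per kb in Control (median 144) and from 109 to 148 in AdCKO (median 138). The log2 fold change was -0.14 (95% interval -0.33 to 0.06, limma adjusted p = 0.194), became 0.34 when every library was scaled to the same total, and was 0.00 without the 3 libraries with muscle transcripts. Of its 50-base windows 17.7% are shared with Snx21 on the opposite strand.

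**Figure D2:**
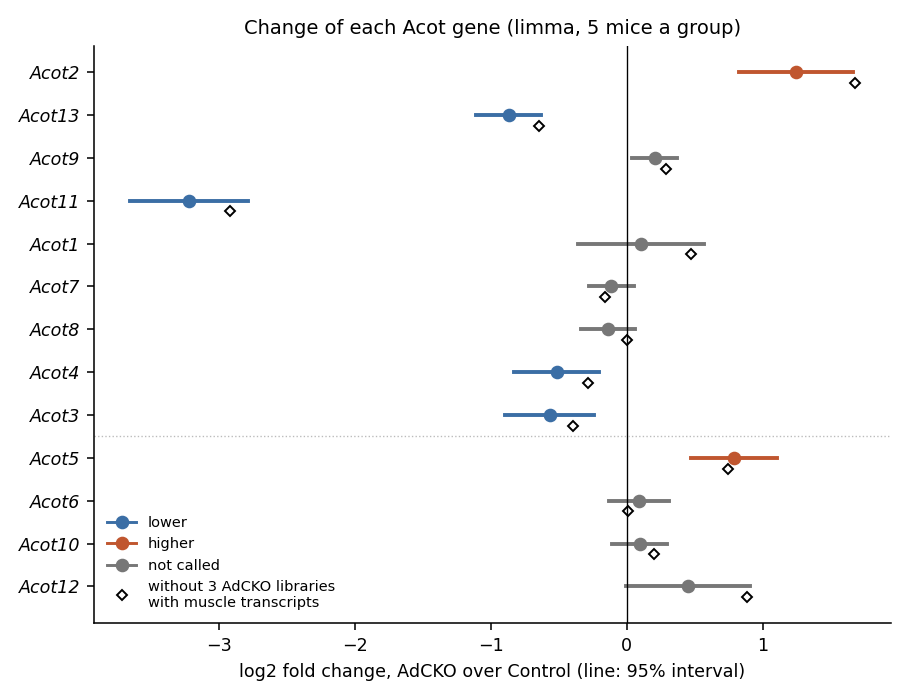
Log2 fold change of AdCKO over Control for the 9 members and, below the dotted line, the 4 relatives, with 95% intervals from limma (n = 5 each). Blue genes were lower, orange genes higher and grey genes not called, and open diamonds give the value without the 3 AdCKO libraries with muscle transcripts. Acot11 stands far to the left at -3.22 and Acot2 farthest to the right at 1.25.

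The 4 relatives were low in this tissue, with means under 50 normalized reads per kb in both groups. Acot5, a peroxisomal type I enzyme of the same cluster on chromosome 12, was the 1 relative called, with 31.3, 17.0, 17.6, 21.2 and 18.9 normalized reads per kb in Control, against 36.0, 41.6, 34.9, 34.4 and 35.8 in AdCKO. Its groups did not overlap, and the log2 fold change was 0.79 (adjusted p = 0.00041 by limma, SE 0.14), or 0.75 without the 3 libraries with muscle transcripts, where the call was lost (limma adjusted p = 0.0106). Acot5 shares 22.7% of its 50-base windows with other Acot genes. In normalized reads per kb, Acot6 stood at 20.9 ± 2.92 in Control against 22.2 ± 1.54 in AdCKO, and Acot10 at 38.9 ± 4.38 against 41.5 ± 3.82. Acot12, known as a cytosolic acetyl-CoA hydrolase of liver, had 7.11 ± 1.75 and 10.3 ± 3.46, with a log2 fold change of 0.45 (limma adjusted p = 0.076), and was called higher when the 3 libraries with muscle transcripts were left out (0.89, limma adjusted p = 0.00428).

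The order of the members by level differed between the groups. In Control the order from high to low was Acot11, Acot13, Acot2, Acot1, Acot9, Acot8, Acot7, Acot4 and Acot3. The ranges of neighbours in that order did not overlap for Acot11 and Acot13, Acot13 and Acot2, Acot1 and Acot9, Acot8 and Acot7, and Acot4 and Acot3, and overlapped for the other 3 pairs. In AdCKO the order was Acot2, Acot13, Acot1, Acot11, Acot9, Acot8, Acot7, Acot4 and Acot3. There the ranges of neighbours overlapped from Acot2 through Acot13, Acot1 and Acot11 to Acot9, and for Acot8 and Acot7, and did not overlap for the other 3 pairs. Even so, Acot2 was above Acot13 and Acot13 above Acot1 in 5 of 5 AdCKO libraries. The lower end of the order, from Acot9 to Acot3, was the same in both groups.

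As shares of the summed level of the 9 members, Acot11 made up 44.3% ± 3.56 of the Control total and 7.62% ± 1.97 of the AdCKO total (SD, n = 5 each). Acot2 went the other way, from 10.5% ± 1.33 to 39.2% ± 3.67, and ran from 34.4% to 44.0% within AdCKO. The share of Acot13 was 24.9% ± 0.75 in Control and 21.5% ± 1.53 in AdCKO, and that of Acot1 was 8.96% ± 2.20 and 14.8% ± 0.83. These shares are ratios within a library, so they do not depend on how libraries were scaled to each other. Because the shares of a library add up to a whole, a lower level of Acot11 by itself raises the shares of the other members. The share of Acot1 was thus higher in AdCKO although its level was not called. The summed level itself was 4781 ± 349.6 normalized reads per kb in Control against 3103 ± 769.9 in AdCKO, and the groups overlapped, because AdCKO replicate 5 (4352) was above Control replicate 3 (4230). Among the type II members the sum was 3417 to 4154 in Control and 1182 to 1673 in AdCKO. Of these members only Acot11 and Acot13 were lower, and Acot7, Acot8 and Acot9 were not called. Among the type I members the sum was 790.4 to 1270 in Control and 1205 to 2680 in AdCKO. Of these only Acot2 was higher, while Acot3 and Acot4 were lower and Acot1 was not called. Both sums leave out the relatives.

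**Figure D3:**
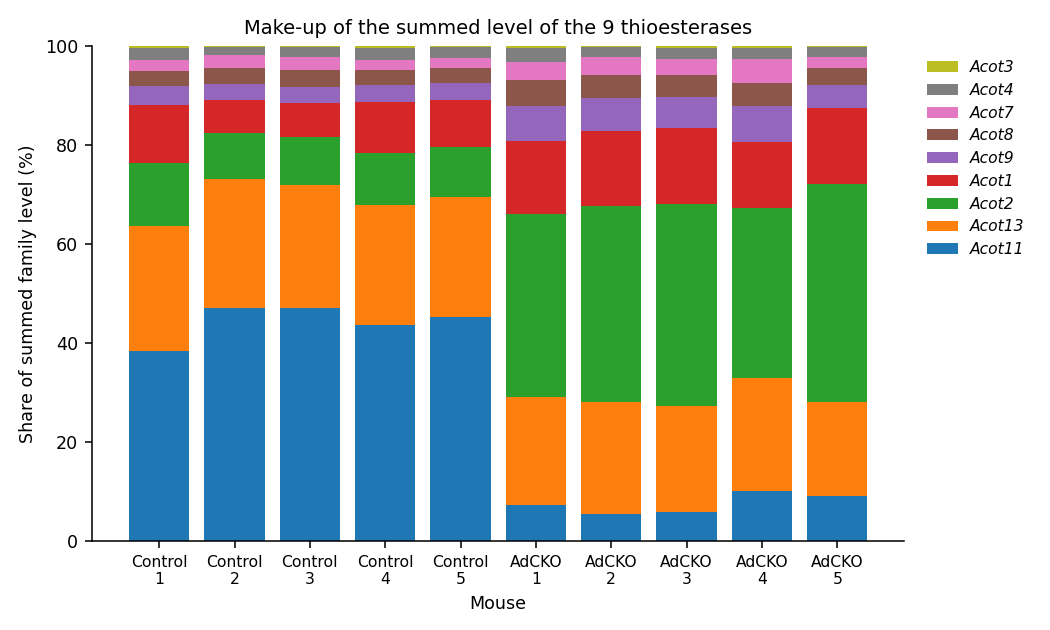
Share of each member in the summed level of the 9 members (percent, stacked from 0 to 100), 1 bar per mouse. Acot11 fills 38.4% to 47.0% of each Control bar and 5.58% to 10.1% of each AdCKO bar, and Acot2 fills 9.44% to 12.8% and 34.4% to 44.0%.

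Ratios between members within each library were compared for 4 pairs by exact two-sided permutation tests, adjusted over the 4. The log2 ratio of Acot2 to Acot1 was 0.14, 0.52, 0.50, 0.02 and 0.11 in Control and 1.31, 1.39, 1.42, 1.36 and 1.51 in AdCKO. No AdCKO library came near a Control library, and the 5 AdCKO libraries spanned less than the 5 Control libraries. The difference of 1.14 (SE 0.11) had an exact p of 0.0079 and an adjusted p of 0.0159, and it was 1.21 in the 2 AdCKO libraries without muscle transcripts. The pair of mitochondrial hotdog enzymes, Acot9 to Acot13, also differed, with mean log2 ratios of -2.85 in Control and -1.77 in AdCKO (difference 1.08, SE 0.08, exact p = 0.0079, adjusted p = 0.0159), and by 0.94 without the libraries with muscle transcripts. The difference between the groups in the log2 ratio of Acot4 to its neighbour Acot3 was 0.09 (SE 0.05, exact p = 0.159). That of Acot8 to Acot4 was 0.38 (SE 0.16, exact p = 0.0635, adjusted p = 0.0847), with groups that overlapped.

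**Figure D4:**
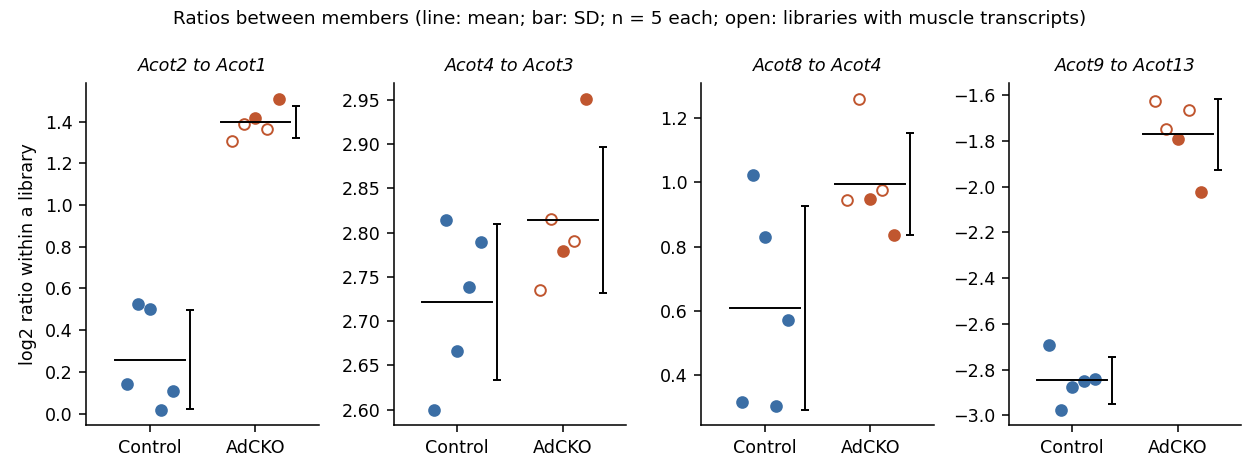
Log2 ratio between 2 members within each library for the 4 pairs, Control in blue and AdCKO in orange, with the mean as a line and the SD as a bar (n = 5 each); open circles are the libraries with muscle transcripts. The groups lie apart for Acot2 to Acot1 and for Acot9 to Acot13 and overlap for the other pairs.

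The libraries of a group also differed among themselves in a way that several members shared. All 4 type I members had their 2 lowest Control values in Control replicates 2 and 3. Of the 9 members, 6 had their 2 highest AdCKO values in AdCKO replicates 3 and 5, which are the libraries without muscle transcripts, and 5 had their lowest AdCKO value in AdCKO replicate 4. Summed macrophage markers were lowest in AdCKO replicate 5 (9065) and highest in AdCKO replicate 4 (13563) within AdCKO. Summed adipocyte markers were highest in AdCKO replicate 5 (161460.1 normalized reads per kb) and lowest in AdCKO replicate 1 (135298). AdCKO replicate 3 did not stand out in the same way. Its macrophage sum (11026) was above that of AdCKO replicate 1 (10552), and its adipocyte sum (141982) was below that of AdCKO replicate 2 (150283). The counts of members were made without the share over all tested genes beside them, so they do not show a trait of the family. The part of these differences between libraries in the values of the members was not tested.

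A group of 6 Acot genes lies side by side on the plus strand of chromosome 12, over 121.9 kb of mm9 from 85328811 to 85450733. From the proximal to the distal end they are Acot2 (higher), Acot1 (not called), Acot4 and Acot3 (lower), Acot5 (higher) and Acot6 (not called). Within 500 kb of either end of this group lie 20 other listed genes, of which 19 were tested. Of these 19 genes, 9 were lower, 1 was higher and 9 were not called, beside 28.0% lower and 25.6% higher among all tested genes. The 1 higher gene, 2410016O06Rik, at a log2 fold change of 0.32, was named after its values were seen, and its call was lost when any 1 of 9 libraries (all but Control replicate 1) or the 3 libraries with muscle transcripts were left out. Among the lower genes, the call of Lin52 (-0.36) was lost when any 1 of 7 libraries was left out, and that of Dcaf4 (-0.43) when any 1 of 5 was. Scaled to the same total in every library, 6 of the 19 genes were lower and 8 were higher, beside 1094 and 7013 of 11431 tested genes. On the distal side Coq6, an enzyme of coenzyme Q synthesis, was lower (-1.64), as were Entpd5 (-1.03), Ptgr2 and Fam161b (-0.73). Other lower genes of that side included Aldh6a1 (-1.67), Ccdc176 (-1.06) and Abcd4 (-0.94), which were named after their values were seen.

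**Figure D5:**
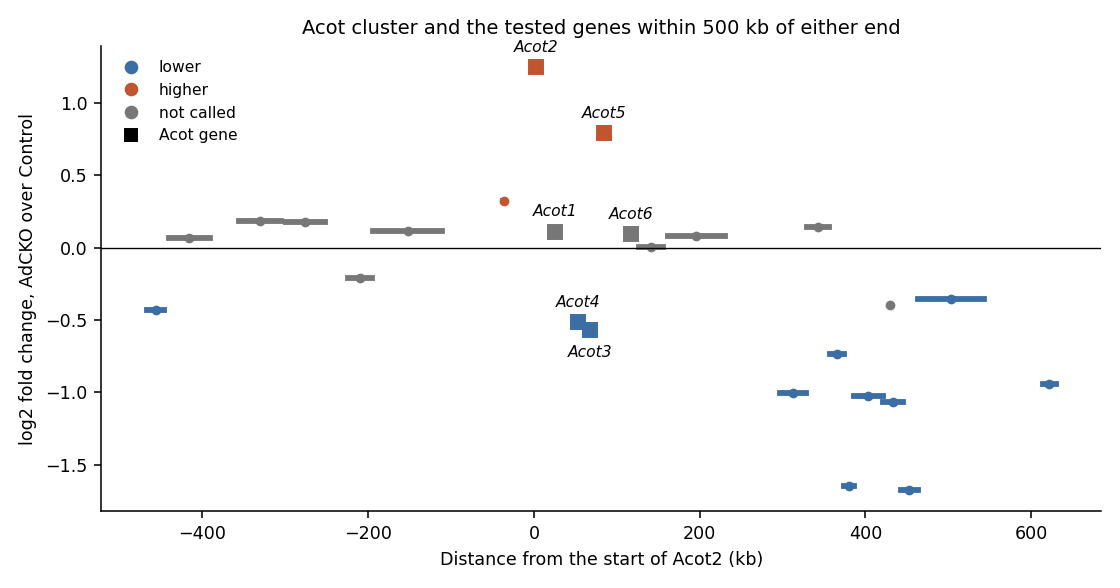
Log2 fold change of AdCKO over Control for the Acot cluster (squares) and the other tested genes (circles) against distance from the start of Acot2 in kb, where lines span each gene. Acot2 and Acot5 lie above 0, Acot4 and Acot3 below, and the 6 Acot genes are followed on the right by a stretch with several lower genes.

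For the called member with the smallest p in each direction, the 3 tested genes with the most similar profile over the 10 libraries were found by Euclidean distance between log2 values centred on each gene's mean. For Acot11 these were Adck3 (distance 0.75), Aspg (1.13) and Slc25a48 (1.17), against a median distance of 5.20 over all tested genes. Adck3 shared the raised value of AdCKO replicate 5, at 628 normalized reads per kb against 205 to 301 in the other 4 AdCKO libraries. For Acot2 they were Akr1b7 (0.53), Fosl2 (0.67) and Sash1 (0.67), against a median of 2.34. All 3 had their highest value in AdCKO replicate 5, as Acot2 did. These distances include the difference between the groups, and describe the 10 libraries only. Since the genes were chosen by these same profiles, a shared highest library follows in part from the choice.

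Other enzymes that make, move or break acyl-CoAs give the surroundings of the family. Of 14 tested acyl-CoA synthetases, the enzymes that run opposite to the thioesterases, 11 were lower and 2 were higher, with a median log2 fold change of -1.27. The lower ones included Acsm3 (-4.16), Acss3 (-2.30), Acsf3 (-1.70) and Acss1 (-2.42), and the higher ones were Acsl4 (0.86), which prefers arachidonate, and Slc27a3 (0.42). Of 6 tested genes for carnitine acyltransferases and the carnitine carrier, 5 were lower, among them Cpt2 (-1.37), Crat (-1.04) and Crot (-0.77). The 1 that was higher, Cpt1a at 1.59, encodes the liver form of the enzyme that starts the entry of long-chain acyl groups into mitochondria. All 3 coenzyme A diphosphatases, Nudt7 (-1.14), Nudt19 (-0.69) and Nudt8 (-0.97), were lower. Of 5 tested acyl-CoA binding proteins, 3 were lower, including Dbi (-1.48), Acbd5 (-0.98) and Acbd4 (-0.91), and Acbd3 (0.32) was higher, a call that was lost when any 1 of 8 libraries (all but Control replicates 4 and 5) was left out.

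In peroxisomal beta-oxidation and acyl-CoA transport, the setting of Acot3, Acot4 and Acot8, 10 of 14 genes were lower and 2 were higher. Decr2 (-1.53), Abcd3 (-1.21), Amacr (-0.95) and Hsd17b4 (-0.55) were lower, and Acox2 (1.15) and Acaa1b (0.89) were higher. Scaled to the same total in every library, 4 of the 14 were lower and 4 were higher, and Hsd17b4 (-0.07) was not called. Of 12 tested thioesterases of other families, 5 were lower, such as Hibch (-0.90) and Lypla1 (-0.89), 1 was higher (Them4, 0.44), and 6 were not called. The call of Them4 was lost when any 1 of 6 libraries (Control replicates 2, 3 and 4 and AdCKO replicates 1, 2 and 3) was left out, and with the same total in every library 2 of the 12 were lower and 6 were higher. Of 30 tested genes for PPAR alpha, its partners and its classical targets, a group to which Acot1 to Acot4 are often counted in liver, 19 were lower and 4 were higher. Ucp3 (-1.81) and Hadhb (-1.59) were among the lower ones, and Fgf21 (3.24), Cpt1a, Acaa1b and Plin2 (0.76) were the higher ones. Each of these genes had a limma adjusted p below the threshold. The counts under the authors' scaling stand beside the background shares of 28.0% lower and 25.6% higher. Those with the same total in every library stand beside 1094 lower and 7013 higher of 11431 tested genes. Without the 3 libraries with muscle transcripts, 2 of the other thioesterases were lower and 0 were higher, 1 synthetase was higher, and 0 acyl-CoA binding proteins were higher. Of all 11097 genes tested there, 2191 were lower and 2083 were higher.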

How the data were processed

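Libraries of brown fat RNA from 10 mice, 5 of them Control and 5 AdCKO, were analysed, with groups and replicate numbers taken from the sample labels. Per the labels and the study's methods, the authors isolated polyadenylated RNA, aligned reads with STAR to the mm9 genome, built HOMER tag directories, counted reads in exons by iRNA-seq and used DESeq2 for normalization. For 15075 genes the authors deposited a normalized signal, reads divided by kb of counted exon, which is not a count. Multiplied by counted length they sum to 7615403 to 8171138 normalized reads per Control library and 5419800 to 5843024 per AdCKO library. Because these totals follow normalization, the depth is unknown and no counting error is given. The authors also deposited their own fold changes and adjusted p-values and separate lists of higher and lower genes, which were not used.

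Genes whose mean reached 10 in either group (11244) were tested as log2(value + 1), a scale that understates the change of low genes, with limma 3.58.1 in R 4.3.3 (intensity trend, two-sided, Benjamini-Hochberg, threshold 0.01). On simulated data for these 11244 genes, 200 were changed by 1 or 2 on the log2 scale, in either direction. Of 193 tested changed genes 184 (95.3%) were recovered, and 2 unchanged genes were called. The simulation has far fewer changed genes than were called in the data, and no smaller changes. It does not speak to calls such as those of Acot3 and Acot4. Single genes and ratios were compared by exact permutation tests in scipy 1.17.1, and plots used matplotlib 3.10.9 under Python 3.11.15. Sequences came from the mm9 genome and the GENCODE vM1 transcripts, with Biopython 1.88 for alignment and, for each gene, the transcript nearest in length to the counted bases.

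The members and gene lists were chosen with earlier results of these data known. Named are all Acot genes, Crls1, at most 4 called genes with the smallest p per list plus called genes that go against the list, and the nearest genes of Acot11 and Acot2. Beyond this rule 2410016O06Rik, Lin52, Dcaf4, Aldh6a1, Ccdc176 and Abcd4 were named. The alternatives were other pseudocounts (0.1 and 10), quantile normalization, libraries scaled to equal totals, no filter, a filter at an overall mean of 1, no trend, a robust trend, array weights, the replicate number as a block, a threshold of 0.05 and each library left out. Leaving out the 3 AdCKO libraries with muscle transcripts was added after seeing the data.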

Additional observations from a re-analysis of the deposited data

Results flagged for a closer look

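Among 34 groups of 5 values for the 13 Acot genes and the 4 ratios, 1 had a value far from the other 4, a rate that chance alone gives in about 1 of 20 groups. Acot5 was 41.6 normalized reads per kb in AdCKO replicate 2, while the other 4 AdCKO libraries lay between 34.4 and 36.0. AdCKO replicate 2 is also the library with the highest summed level of skeletal muscle markers (26956), and the part of these in its Acot5 value was not tested.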

How the results depend on the processing

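Acot11, Acot13 and Acot2 kept their direction and their call under all 22 alternatives, with log2 fold changes from -3.43 to -2.74, from -0.96 to -0.39 and from 1.07 to 1.73. The value nearest 0 for Acot13, -0.39, came from scaling all libraries to 1 total, and quantile normalization gave -0.59. When 1 library at a time was left out, the log2 fold changes ran from -3.43 to -3.10 for Acot11, from -0.96 to -0.81 for Acot13, from 1.07 to 1.38 for Acot2, from -0.65 to -0.49 for Acot3, from -0.59 to -0.45 for Acot4, from -0.037 to 0.23 for Acot1, from -0.15 to -0.06 for Acot7, from -0.17 to -0.06 for Acot8 and from 0.15 to 0.24 for Acot9. The count of lower members then ran from 2 to 4, and was 2 without Control replicate 1, 4 or 5 or AdCKO replicate 2 or 4, and the count of higher members stayed at 1. With the same total in every library, 2 members were lower and 4 were higher, and 1094 of all genes were lower and 7013 higher. Over the pathway lists and the list of genes beside the cluster, 37 genes were lower and 24 higher, in place of 55 and 9. Acyl-CoA synthetases were at 7 lower in place of 11 under this scaling. There the log2 fold changes were -0.12 for Acot3 and -0.041 for Acot4, which were not called, and 0.36 for Acot7, 0.34 for Acot8 and 0.68 for Acot9, which were called higher. Quantile normalization gave 2 higher members, with Acot9 called at 0.28, and turned Acot6 to -0.21 and Acot10 to -0.076, neither of them called. At a threshold of 0.05 there were 2 higher members, with Acot9 (0.20) added. Acot4 was not called at -0.52 without a filter (adjusted p = 0.0101). Array weights gave -0.059 for Acot1. Without the 3 AdCKO libraries with muscle transcripts, 2 members were lower, Acot3 (-0.40) and Acot4 (-0.28) were not called, and 2191 of all genes were lower and 2083 higher. The difference in the log2 ratio of Acot9 to Acot13 was then 0.94. For ratios, a pseudocount of 10 turned Acot4 to Acot3 to -0.13, and leaving out single libraries gave 0.31 to 0.49 for Acot8 to Acot4, which passed at 0.49 without Control replicate 2 (adjusted p = 0.0212), 1.08 to 1.21 for Acot2 to Acot1, 1.04 to 1.14 for Acot9 to Acot13 and 0.06 to 0.12 for Acot4 to Acot3. The causes of these changes were not tested.

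Replicate numbers did not pair the libraries: deviations of same-numbered libraries correlated at -0.07, 0.09, -0.17, -0.27 and 0.10, and 1 of 10 libraries correlated best with its own number. With the replicate number as a block, 3 members were lower and 1 was higher, since Acot4 (-0.52, adjusted p = 0.0107) was not called and no other member changed its call, and 2838 and 2592 of all genes were lower and higher. The paired difference in ratio equals the unpaired one, and 5 pairs cannot reach a p of 0.05. With 5 mice a group and unknown depth, small differences such as those of Acot7 and Acot8 were not resolved.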
